A study of Mus musculus with 8 samples.

Results

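Immediate early genes are the first genes that cells switch on when a growth factor, depolarization or stress reaches them, and 10 of them were followed here: Fos, Fosb, Fosl1, Fosl2, Jun, Junb, Egr1, Egr2, Ier2 and Nr4a1. They were chosen by name as growth factor- and activity-induced early transcription factors, and each matched 1 of the 20793 rows of the deposited expression table. RNA sequencing covered 8 libraries of mouse brain neural progenitor cells (strain FvB/C57BL/6), dividing cells that can give rise to neurons and glia. The differentiating libraries came from cells kept for 5 days in neurobasal medium with B27 supplement. They were FUBP1-D (FUBP1-targeted), CIC-D (CIC-targeted) and 2 non-targeted (NT) libraries named 7 and GFP-D. The proliferating libraries came from cells kept dividing in N2 medium by EGF and bFGF at 20 ng/ml, and were FUBP1 (FUBP1-targeted), CIC (CIC-targeted) and the NT libraries TRC and GFP. The stated treatment was lentiviral infection with FUBP1 hairpins and selection with puromycin for 3 days. FUBP1 is a regulator of transcription and splicing that binds single-stranded nucleic acid, and CIC (capicua) is a transcriptional repressor that acts downstream of ERK signalling. Each targeted label had 1 library per state. The labels do not tell whether the NT libraries of a state came from separate cultures. The p-values therefore measure library-to-library spread, possibly only technical. In the tests of state and label that spread also holds differences of a label effect between the states.

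The early genes share a route of control. A growth factor receptor activates the Ras, Raf, MEK and ERK kinases, which phosphorylate factors already bound at early gene promoters, among them serum response factor (SRF) with its ternary complex partners at CArG boxes, and CREB at cAMP response elements (CRE). The products are mostly transcription factors: Fos proteins pair with Jun proteins as the AP-1 complex, Egr proteins are zinc finger factors of GC-rich sites, Nr4a1 (Nur77) is an orphan nuclear receptor and Ier2 is a small nuclear protein. Their RNAs are typically short-lived. In the brain, Fos, Egr1 and Nr4a1 are widely read as marks of recent neuronal activity, and growth factors such as EGF and bFGF can also induce early genes.

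The promoters of 5 members are shown because the results below turn on these genes: Fosl2, Egr2 and Nr4a1 were higher in differentiating libraries, Jun was lower, and Fos, the archetype of the class, was not called. RefSeq windows (GRCm38.p6) from 250 bases before to 50 after a start site existed for 7 of the 10 members, Fos, Fosb, Fosl2, Jun, Junb, Egr2 and Nr4a1. Capitals mark matches on either strand to the CRE core TGACG, the full CRE TGACGTCA, the AP-1 site TGACTCA, its Jun promoter form TGACATCA, the CArG box, the Egr site GCGGGGGCG, the TATA box TATAAA or the Nr4a site AAAGGTCA, and the CRE core is contained in the full CRE. For Egr2 the third of 5 listed start sites is shown, chosen with the matches known: the windows of the third to the fifth overlap and hold the same CArG box and CRE cores, the second holds a CArG box only and the first no match. The windows lie at chr5:32136222-32136521 (plus strand) for Fosl2, chr10:67537619-67537918 (plus) for Egr2, chr15:101266596-101266895 (plus) for Nr4a1, chr4:95052173-95052472 (minus) for Jun and chr12:85473640-85473939 (plus) for Fos.
Fosl2: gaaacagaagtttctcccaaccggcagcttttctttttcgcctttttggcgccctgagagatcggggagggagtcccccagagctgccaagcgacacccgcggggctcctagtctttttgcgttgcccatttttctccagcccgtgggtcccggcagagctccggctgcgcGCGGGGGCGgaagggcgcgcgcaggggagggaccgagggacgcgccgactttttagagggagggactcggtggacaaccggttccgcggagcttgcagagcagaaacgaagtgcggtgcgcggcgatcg
Egr2: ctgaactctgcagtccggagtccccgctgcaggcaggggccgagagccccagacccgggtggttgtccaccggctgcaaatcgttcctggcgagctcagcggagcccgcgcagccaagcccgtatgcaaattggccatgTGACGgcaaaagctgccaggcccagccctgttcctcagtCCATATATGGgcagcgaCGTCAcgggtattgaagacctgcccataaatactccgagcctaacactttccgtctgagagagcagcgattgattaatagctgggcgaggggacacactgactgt
Nr4a1: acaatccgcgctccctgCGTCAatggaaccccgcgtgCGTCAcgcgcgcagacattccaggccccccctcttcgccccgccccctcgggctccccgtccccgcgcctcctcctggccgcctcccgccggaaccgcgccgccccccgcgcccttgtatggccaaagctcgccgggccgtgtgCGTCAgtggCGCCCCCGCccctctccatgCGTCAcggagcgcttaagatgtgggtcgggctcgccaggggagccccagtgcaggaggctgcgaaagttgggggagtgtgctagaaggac
Jun: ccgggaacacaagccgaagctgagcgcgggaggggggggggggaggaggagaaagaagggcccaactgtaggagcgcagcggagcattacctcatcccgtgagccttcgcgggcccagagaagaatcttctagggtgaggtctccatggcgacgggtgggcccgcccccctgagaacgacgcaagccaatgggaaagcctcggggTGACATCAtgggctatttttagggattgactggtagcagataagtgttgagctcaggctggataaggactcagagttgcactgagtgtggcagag
Fos: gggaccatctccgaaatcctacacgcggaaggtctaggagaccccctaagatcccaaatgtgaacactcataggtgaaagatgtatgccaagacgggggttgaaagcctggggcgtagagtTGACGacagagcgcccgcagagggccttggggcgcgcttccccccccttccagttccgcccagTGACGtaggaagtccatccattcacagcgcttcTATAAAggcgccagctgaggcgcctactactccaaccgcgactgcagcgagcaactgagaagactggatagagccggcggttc

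The Egr2 window held a CArG box at -72 from the start site and CRE cores at -111 and -55. A CArG box was present in 1.63% of the 32851 windows of all genes and a CRE core in 20.8%. Nr4a1 had 4 CRE cores, at -233, -213, -69 and -40, and 1 Egr site at -60. Fosl2 had a single match, an Egr site at -79, a motif of 2.91% of all windows. Jun held the TGACATCA form at -45, found in 3.62% of all windows. Fos had CRE cores at -129 and -66 and a TATA box at -33 (13.6% of all windows). No window of these 5 genes held the full CRE (1.79% of all windows), the TGACTCA form (5.20%) or the Nr4a site (1.51%). A match is a description of the letters in the window. Bases further upstream were not searched, so a missing match, such as that of a CArG box in Fos, holds for the window only.

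Levels are FPKM, fragment counts scaled by the authors to transcript length and library size, and can be compared between genes. Jun was the highest of the 10 in all 8 libraries, with a median of 95.8 FPKM, and Junb ranked second in 7 of them, with a median of 30.0 FPKM. Egr1 (median 17.2), Fos (14.6), Ier2 (13.3) and Fosl2 (10.8 FPKM) formed a middle group, whose ranges overlapped. Nr4a1 (4.33), Egr2 (3.49), Fosb (1.73) and Fosl1 (1.37 FPKM) were low. Among the 11968 rows that reached 1 FPKM in 2 or more libraries, which all 10 members did, the mean of Jun exceeded 93.5% of rows and that of Fosb 8.57%. The widest range was that of Egr2, 16.0-fold from TRC to 7, and the narrowest that of Junb, 2.66-fold from FUBP1-D to 7.

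**Figure D1:**
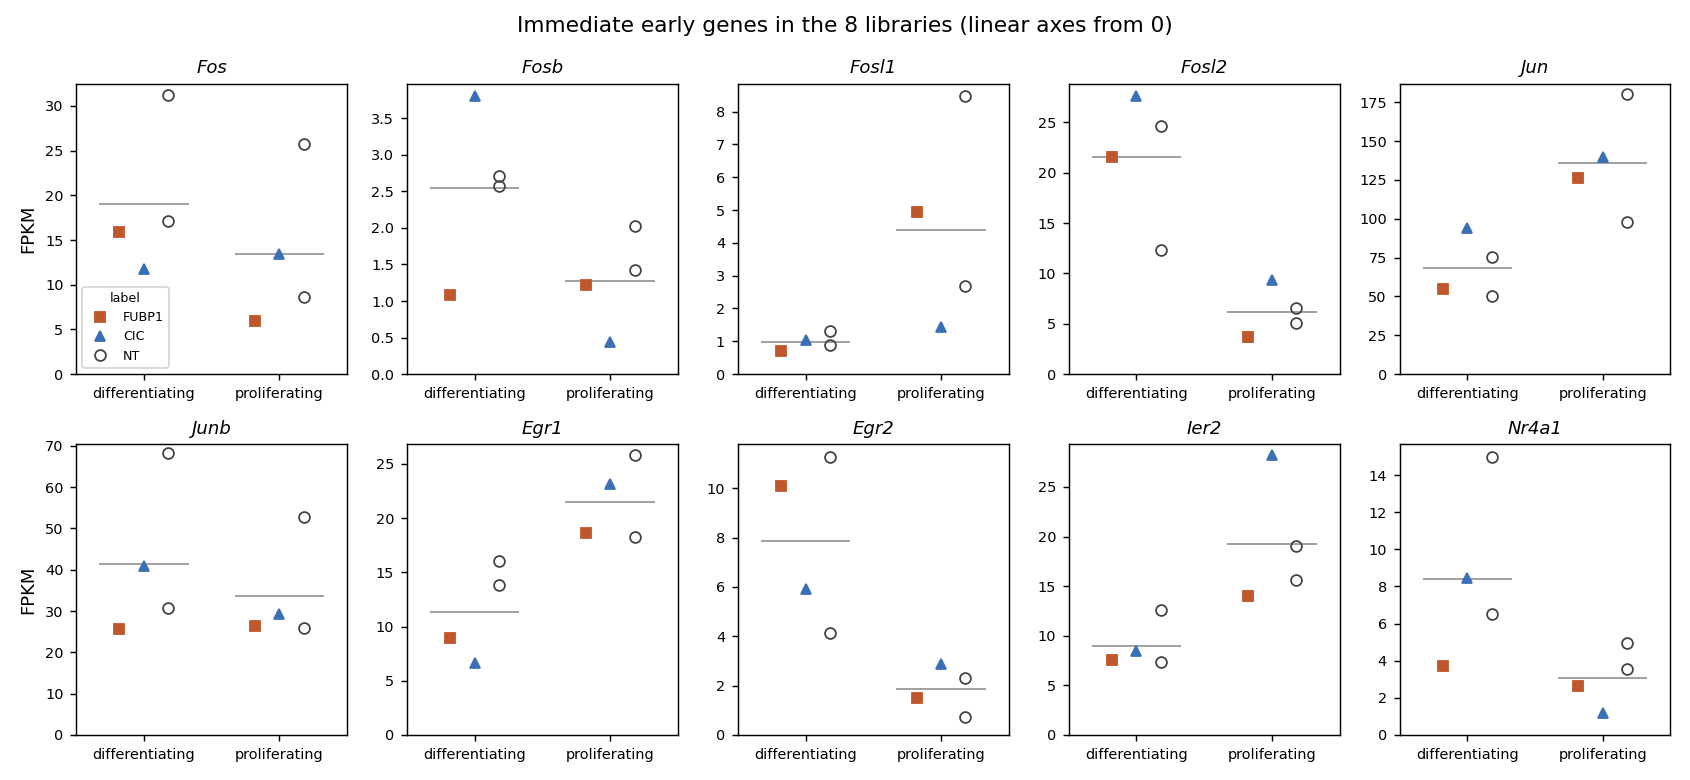
FPKM of the 10 genes in each of the 8 libraries, differentiating left and proliferating right, on linear axes that start at 0. Squares are libraries labelled FUBP1, triangles those labelled CIC, open circles the NT libraries, and grey lines the mean of the 4 libraries of a state; Fosl2 and Egr2 lie higher in every differentiating library, and Fosl1, Jun, Egr1 and Ier2 lower.

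Between the states, the 10 genes moved in opposite directions. Of the 10, 3 rose in the differentiating libraries (Fosl2, Egr2 and Nr4a1), 4 fell (Fosl1, Jun, Egr1 and Ier2) and 3 were not called (Fos, Fosb and Junb). Over all 11968 rows 38.8% were called, 21.2% higher and 17.7% lower. The test was limma on log2(FPKM + 1) in an additive model of state and label over the 8 libraries, with Benjamini-Hochberg adjustment over all rows and a threshold of 0.05. Differences below are differentiating minus proliferating on that scale, on which changes of low genes are compressed, and standard errors (SE) come from the same fit. In 6 of the 10 genes the 4 differentiating libraries lay entirely on one side of the 4 proliferating ones, as did 38.0% of all rows.

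Fosl2, which encodes the Fos family member FRA-2 (chromosome 5, 32438845 to 32460212, mm9), had 21.5 FPKM in FUBP1-D, 27.6 in CIC-D, 24.6 in 7 and 12.3 in GFP-D, against 3.69 in FUBP1, 9.39 in CIC, 5.05 in TRC and 6.59 in GFP. Every differentiating library lay above every proliferating one, with GFP-D the lowest of the differentiating libraries and CIC the highest of the proliferating ones. The difference was 1.65 (SE 0.27, limma adjusted p = 0.0040), the smallest p of the 10 genes. It was called under all 17 alternatives run, with differences between 1.23 and 1.94.

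Fosl1 (FRA-1; chromosome 19, 5447698 to 5455938), a Fos family member that responds to sustained ERK signalling, went the other way. It had 0.719 FPKM in FUBP1-D, 1.05 in CIC-D, 1.31 in 7 and 0.893 in GFP-D, against 4.94 in FUBP1, 1.44 in CIC, 8.46 in TRC and 2.70 in GFP. The states did not overlap, but CIC lay just above 7, and TRC stood far above the other proliferating libraries. The difference was -1.26 (SE 0.38, adjusted p = 0.034), and it was called in 8 of 16 alternatives (adjusted p from 0.015 to 0.13). It was not called with a pseudocount of 5 (limma adjusted p = 0.052), without a filter (0.068) or from group means. The call was lost when FUBP1, FUBP1-D, TRC, 7 or GFP-D was left out (differences from -0.94 without TRC to -1.27 without 7). The Fosl1 locus overlapped that of Ccdc85b, which was at 8.60 ± 1.72 FPKM in the differentiating and 14.8 ± 5.95 FPKM in the proliferating libraries (SD, n = 4 each) and was not called (-0.63, SE 0.31, adjusted p = 0.14). Whether counting used strand is not stated, and fragments of this neighbour may be included in the Fosl1 values.

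Fos itself (chromosome 12, 86814851 to 86818219) had 15.9 FPKM in FUBP1-D, 11.8 in CIC-D, 31.2 in 7 and 17.2 in GFP-D, against 5.97 in FUBP1, 13.4 in CIC, 8.64 in TRC and 25.8 in GFP. The states overlapped, and the NT libraries of a state differed 1.82-fold in the differentiating and 2.98-fold in the proliferating state. The library named 7 was higher than TRC and FUBP1-D higher than FUBP1, whereas GFP-D was lower than GFP and CIC-D lower than CIC. The difference of 0.57 (SE 0.39, adjusted p = 0.27) was within that spread. Fosb (chromosome 7, 19888045 to 19895394), which also yields the truncated delta-FosB protein in chronically stimulated neurons, was low throughout. It had 1.09 FPKM in FUBP1-D, 3.81 in CIC-D, 2.57 in 7 and 2.71 in GFP-D, against 1.21 in FUBP1, 0.441 in CIC, 2.03 in TRC and 1.43 in GFP. Its difference was 0.63 (SE 0.31, adjusted p = 0.14).

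The make-up of the Fos family differed between the states. Of the summed FPKM of Fos, Fosb, Fosl1 and Fosl2, Fosl2 took 54.9% in FUBP1-D, 62.4% in CIC-D, 41.2% in 7 and 37.1% in GFP-D, against 23.3% in FUBP1, 38.1% in CIC, 20.9% in TRC and 18.1% in GFP. CIC lay above GFP-D, so the shares overlapped there. Fosl1 took between 1.83% and 2.70% of the differentiating sums, against 31.3% in FUBP1, 5.82% in CIC, 35.0% in TRC and 7.39% in GFP. Fosl2 was the most abundant of the 4 in FUBP1-D and CIC-D, and Fos was in the other 6 libraries. These shares combine members whose own differences are given above and were not tested.

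**Figure D2:**
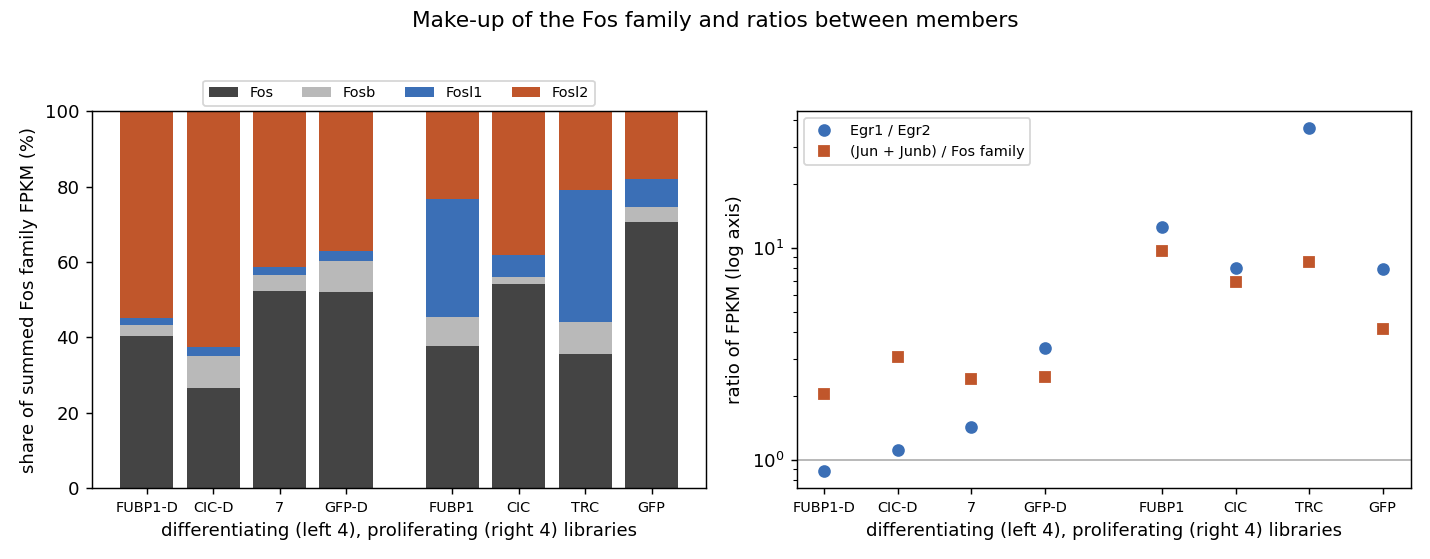
Left, shares of Fos, Fosb, Fosl1 and Fosl2 in their summed FPKM, in percent, per library; right, the ratio of Egr1 to Egr2 FPKM (circles) and of Jun plus Junb to the Fos family (squares) on a log axis. The 4 differentiating libraries stand left of the 4 proliferating ones; the ratio of Egr1 to Egr2 lay between 0.882 and 3.36 in the differentiating and between 7.94 and 36.6 in the proliferating libraries.

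The Jun partners did not move alike. Jun (chromosome 4, 94715727 to 94718913), the main transactivating partner of Fos proteins, had 54.7 FPKM in FUBP1-D, 93.8 in CIC-D, 75.6 in 7 and 50.4 in GFP-D, against 126 in FUBP1, 140 in CIC, 180 in TRC and 97.7 in GFP. All differentiating libraries lay below all proliferating ones, though CIC-D and GFP were close. Jun fell by 0.99 (SE 0.25, adjusted p = 0.019), and 13 of 17 alternatives called it. Junb (chromosome 8, 87500808 to 87502647), often a weaker activator that restrains Jun, had 25.7 FPKM in FUBP1-D, 41.0 in CIC-D, 68.2 in 7 and 30.6 in GFP-D, against 26.3 in FUBP1, 29.4 in CIC, 25.8 in TRC and 52.7 in GFP. The states overlapped widely, and the NT libraries differed 2.23-fold in the differentiating and 2.04-fold in the proliferating state. Its difference was 0.26 (SE 0.32, adjusted p = 0.54). Jun and Junb together exceeded the Fos family 2.05-fold to 3.04-fold in the differentiating libraries and 4.12-fold to 9.65-fold in the proliferating ones. These ratios leave out Jund, a Jun gene that is not a member. It was at 39.4 to 92.4 FPKM in the differentiating and 22.0 to 49.3 FPKM in the proliferating libraries, so ratios for the whole Jun family would differ.

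The pair of Egr genes moved in opposite directions. Egr1 (chromosome 18, 35020861 to 35024610), the best known direct readout of ERK and SRF, had 8.90 FPKM in FUBP1-D, 6.61 in CIC-D, 16.1 in 7 and 13.8 in GFP-D, against 18.6 in FUBP1, 23.2 in CIC, 25.8 in TRC and 18.3 in GFP. All differentiating libraries lay lower, 7 being the closest to GFP. Egr1 fell by 0.92 (SE 0.25, adjusted p = 0.023), and 12 of 17 alternatives called it. Egr2 (Krox20; chromosome 10, 67000617 to 67004936), a factor of hindbrain patterning and of myelination by Schwann cells, had 10.1 FPKM in FUBP1-D, 5.92 in CIC-D, 11.2 in 7 and 4.12 in GFP-D, against 1.49 in FUBP1, 2.87 in CIC, 0.705 in TRC and 2.30 in GFP. Every differentiating library lay higher, and Egr2 rose by 1.62 (SE 0.38, adjusted p = 0.015), called in 14 of 16 alternatives. The ratio of Egr1 to Egr2 was 0.882 in FUBP1-D, 1.12 in CIC-D, 1.43 in 7 and 3.36 in GFP-D, against 12.5 in FUBP1, 8.07 in CIC, 36.6 in TRC and 7.94 in GFP.

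Ier2 (chromosome 8, 87185230 to 87186751) had 7.50 FPKM in FUBP1-D, 8.43 in CIC-D, 7.35 in 7 and 12.5 in GFP-D, against 14.0 in FUBP1, 28.3 in CIC, 19.0 in TRC and 15.7 in GFP. The states did not overlap, and Ier2 fell by 1.00 (SE 0.24, adjusted p = 0.016), called in 13 of 17 alternatives. Nr4a1 (chromosome 15, 101097277 to 101105225) had 3.69 FPKM in FUBP1-D, 8.45 in CIC-D, 15.0 in 7 and 6.53 in GFP-D, against 2.65 in FUBP1, 1.17 in CIC, 3.57 in TRC and 4.98 in GFP. FUBP1-D lay within the range of the proliferating libraries, so the states overlapped. Nr4a1 rose by 1.16 (SE 0.35, adjusted p = 0.036), called in 10 of 17 alternatives. The call was lost without CIC or CIC-D (0.83, adjusted p = 0.12 for both), without TRC (1.10, adjusted p = 0.079) and without 7 (0.96, adjusted p = 0.092).

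The number of called members depended on the libraries kept. It was 7 without GFP and 7 without both GFP-named libraries, 5 without 7 or without GFP-D, 4 without TRC, CIC or CIC-D, and 2 without FUBP1 or FUBP1-D, when Fosl2 and Nr4a1 were the called pair. Leaving out either library of a targeted label takes that label out of the state estimate. Egr2, Jun, Egr1 and Ier2 each lost their call without FUBP1 or FUBP1-D (adjusted p from 0.052 to 0.085), Egr1 and Ier2 also without CIC or CIC-D (0.055 to 0.069), Egr1 without TRC (0.053) and Jun without GFP-D (0.054). Within the NT libraries alone, fitted as group means, 0 of the 10 were called in limma, against 1.46% of all rows, and 4 (Fosl1, Fosl2, Jun and Egr2) had an unadjusted p under 0.05, as did 26.1% of rows. The signs of the 10 differences there were those of the fit over all labels: Fosl2 1.44 (SE 0.40, adjusted p = 0.11), Egr2 1.74 (SE 0.57, adjusted p = 0.14), Jun -1.09 (SE 0.40, adjusted p = 0.17) and Fosl1 -1.50 (SE 0.53, adjusted p = 0.16).

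**Figure D3:**
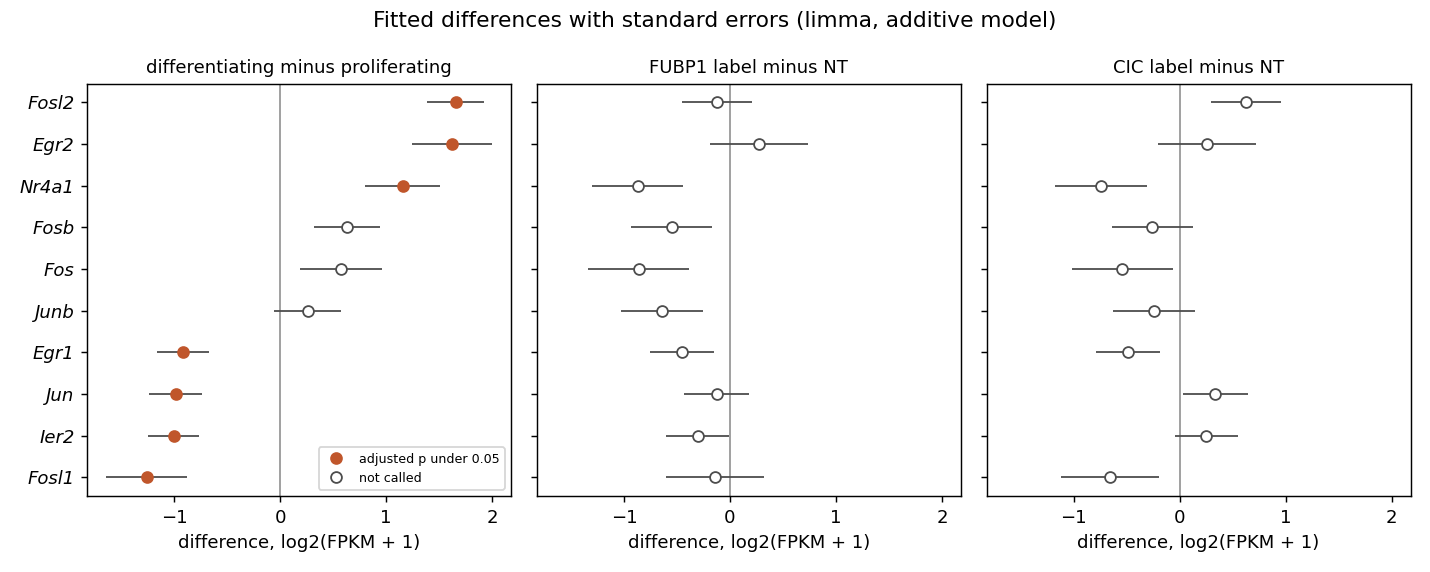
Fitted differences on the log2(FPKM + 1) scale with standard errors for the 10 genes in 3 comparisons: differentiating minus proliferating, FUBP1 label minus NT and CIC label minus NT. Filled points have an adjusted p under 0.05; these are 3 genes above 0 and 4 below 0 in the state comparison and none in the label comparisons.

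Other early genes were read from the same fit, in which 38.8% of all rows were called. Of 29 measured early response genes that are not transcription factors 9 rose and 7 fell (median difference -0.02, against 0.09 over all rows). The matricellular protein gene Cyr61 was at 22.1 ± 10.1 FPKM in the differentiating and 3.39 ± 2.73 FPKM in the proliferating libraries (SD over 4 libraries each, labels mixed; difference 2.52, SE 0.34, adjusted p = 0.0021). The clock gene Per1 (24.0 ± 6.17 against 3.95 ± 1.44 FPKM), the mRNA decay factor Zfp36l1 (252 ± 53.3 against 54.9 ± 27.2 FPKM) and Ctgf rose as well. Those that fell most were Ier5l (15.8 ± 3.23 FPKM in the differentiating and 71.3 ± 23.5 in the proliferating libraries), the polo-like kinase Plk2, the kinase Sgk1 and the neurotrophin Bdnf. Of 16 other early transcription factors 4 fell (Hes1, Klf10, Myc and Klf4) and 0 rose (median 0.10). Myc was at 17.5 ± 6.60 FPKM in the differentiating and 46.9 ± 20.1 FPKM in the proliferating libraries. The remaining Egr and Nr4a genes were low, as were Npas4 and Arc, which like Fos, Egr1 and Nr4a1 are read as marks of neuronal activity. Egr3 reached at most 0.570 FPKM, Egr4 1.20 and Npas4 0.164 FPKM, Nr4a2 was at most 2.04 and Nr4a3 3.21 FPKM. Arc, which did not pass the filter, was at 0.0278 to 0.107 FPKM in the differentiating and 0.111 to 1.52 FPKM in the proliferating libraries. Among 10 measured partners of Fos and Jun only the small Maf gene Mafk was called, higher (16.5 ± 6.07 against 4.17 ± 1.77 FPKM, difference 1.74, SE 0.26, adjusted p = 0.0030).

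Upstream and feedback genes are set beside the same 38.8% of rows called. Of 25 EGF and FGF receptor and ERK cascade genes 7 rose and 2 fell (median 0.45), a share near that of all rows. They included the receptor gene Fgfr3 (45.0 ± 16.8 FPKM in the differentiating and 8.94 ± 7.59 FPKM in the proliferating libraries), the adaptor Gab1, the MEK1 gene Map2k1 (145 to 173 FPKM against 47.2 to 79.5 FPKM) and Fgfr1, all higher, and the ribosomal S6 kinases Rps6ka1 and Rps6ka3, lower. Of 16 feedback inhibitors and Egr corepressors 8 fell and 1 rose (median -0.76): Dusp6, the ERK phosphatase, was at 15.4 ± 6.80 against 146 ± 47.3 FPKM (difference -3.20, SE 0.23, adjusted p = 5.8e-04), Spry1, Spry4 and Dusp4 fell likewise, and the stress kinase phosphatase Dusp10 rose. Among 19 factors that act on early promoters Crtc3 and Crtc1, coactivators of CREB, rose and Atf1 fell, and Srf itself was not called (-0.13, SE 0.19, adjusted p = 0.61). Of 15 genes of the JNK and related stress kinase pathways 4 rose (Mapk10, Mapk9, Map3k1 and Map2k7) and 1 fell (Map2k3), also near the share of all rows. Among 12 well-known AP-1 targets 3 rose (Mt2, Mt1 and Ccl2) and 3 fell: Spp1, Ccnd1, which encodes cyclin D1 (114 ± 50.7 against 968 ± 241 FPKM), and the urokinase receptor gene Plaur. These lists were chosen with earlier results of these data known.

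Other measures were read between the states beside the early genes, and their part in the results was not tested. Over all rows 38.8% were called, 21.2% higher and 17.7% lower. All 10 of 10 cell cycle genes fell (summed level 66.3 to 123 FPKM in the differentiating and 567 to 1292 FPKM in the proliferating libraries). Of 8 astrocyte markers 4 rose, Aqp4, Gfap, Slc1a3 and Slc1a2 (summed level of the 8 between 676 and 1167 FPKM against 284 and 366 FPKM). Of 15 heat shock genes, which respond to handling and protein stress, 2 rose (Cryab and Hspb8) and 7 fell, Hspd1, Hsph1, Hspe1 and Hsp90aa1 the most. Progenitor markers were present, with Sox2 between 238 and 327 FPKM in the differentiating and 116 and 480 FPKM in the proliferating libraries. Of 9 progenitor markers 2 rose (Msi1 and Sox1) and 2 fell (Fabp7 and Olig2), a share near that of all rows. Of 4 neuron markers that passed the filter Tubb3 rose, to 1.92 ± 1.53 FPKM. Markers of microglia, endothelium and mesenchyme summed to at most 7.71, 4.54 and 6.51 FPKM in a library, with Cldn5 listed at 0 in all. Within the NT libraries alone 1.46% of all rows were called. The listed genes among them were 8 cell cycle genes (Cdk1, Aurkb, Top2a, Ccnb1, Pcna, Mcm2, Mki67 and Mcm5), Dusp6, Spry1, Spry4 and Fabp7, all lower, and Mt1 and Mt2, both higher. In these bulk libraries fewer cells of a type and less RNA per cell cannot be told apart.

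The targeted genes were checked before the labels were compared. Fubp1 was at 21.6 FPKM in FUBP1-D, against 24.8 in 7 and 25.4 in GFP-D, and at 34.8 FPKM in FUBP1, against 50.2 in TRC and 12.4 in GFP. The lowest level thus stood in an NT library, and directions for the FUBP1 arm are those of the labels. Cic was at 25.6 FPKM in CIC-D, against 42.0 in 7 and 35.3 in GFP-D, and at 13.3 FPKM in CIC, against 39.4 in TRC and 33.8 in GFP.

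With the FUBP1 label, no early gene passed the test, but most estimates were below 0. In limma 0 of 10 members were called (0% of all rows), 0 had an unadjusted p under 0.05 (2.14% of rows), and 1 of 10 estimates was above 0, against 53.6% of rows. The count above 0 was 3 without TRC, 2 without 7, FUBP1 or FUBP1-D, and 1 without any one of the other 4 libraries. The median over the 10 was -0.38 and over all rows 0.02. All 10 estimates rest on the same libraries, so they are not independent observations. Cell cycle genes had higher estimates with this label: 10 of 10 estimates were above 0 (median 1.24), 7 of them with an unadjusted p under 0.05 and none called. Their summed level was 123 FPKM in FUBP1-D, against 68.4 in 7 and 66.3 in GFP-D, and 1292 FPKM in FUBP1, against 1273 in TRC and 567 in GFP. The part of this in the early gene estimates was not tested. The estimates of smallest p were Nr4a1 (-0.87, SE 0.43), Fos (-0.86, SE 0.48) and Junb (-0.64, SE 0.39), each with a limma adjusted p of 0.999, and Egr2 had the one positive estimate (0.28, SE 0.46). Set against each NT library, FUBP1-D lay below both in 6 members (28.3% of rows) and above both in none (34.9% of rows). The proliferating library labelled FUBP1 lay below both in 5 (27.7% of rows) and above both in none (26.7% of rows). Fos, Fosb and Nr4a1 were below both NT libraries in both states. Nr4a1 in FUBP1-D stood at 24.7% of its level in 7 and 56.5% of GFP-D, and in FUBP1 at 74.2% of TRC and 53.2% of GFP. Fosb in FUBP1-D stood at 42.3% of 7 and 40.1% of GFP-D, and in FUBP1 at 59.8% of TRC and 84.8% of GFP.

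With the CIC label 0 of 10 members were called (0.109% of all rows) and 0 had an unadjusted p under 0.05 (11.4% of rows), and the estimates went both ways, with 4 of 10 above 0 (45.6% of rows). Fosl2 had the smallest p (0.63, SE 0.33, adjusted p = 0.49) and lay above both NT libraries in both states: CIC-D held 112% of 7 and 225% of GFP-D, and CIC held 186% of TRC and 143% of GFP. In CIC-D, Fos and Egr1 lay below both NT libraries (2 of 10, 34.1% of rows), and Fosb, Fosl2 and Jun above both (3 of 10, 30.8% of rows). Egr1 there stood at 41.1% of 7 and 47.9% of GFP-D. In the proliferating library labelled CIC, Fosb, Fosl1 and Nr4a1 lay below both (3 of 10, 39.9% of rows), and Fosl2, Egr2 and Ier2 above both (3 of 10, 31.4% of rows). Nr4a1 there was at 32.9% of TRC and 23.6% of GFP, and Ier2 at 148% of TRC and 180% of GFP.

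**Figure D4:**
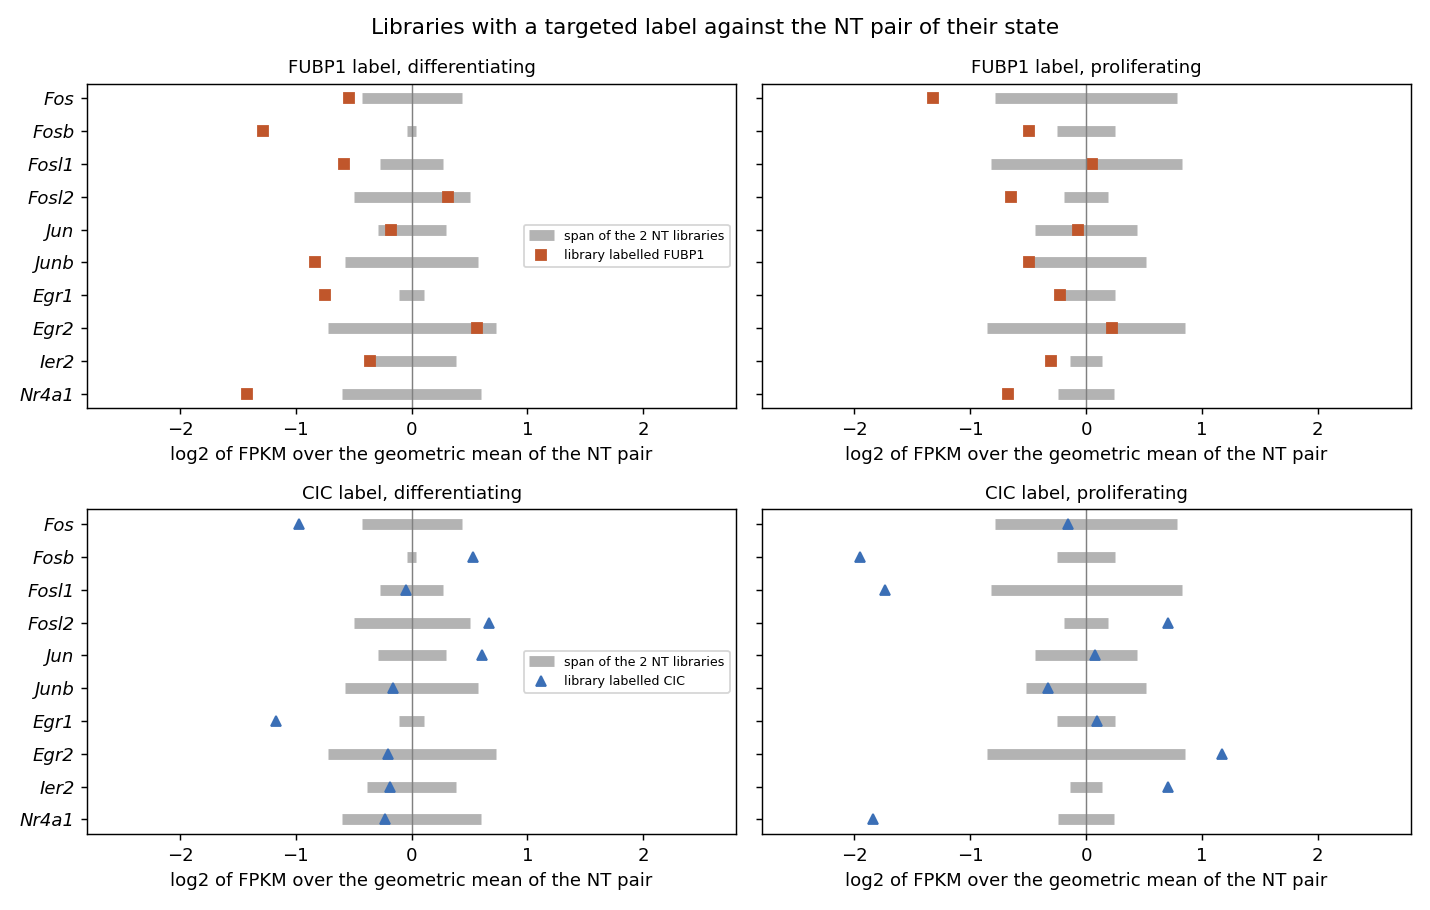
Each marker is a library with a targeted label, as the log2 of its FPKM over the geometric mean of the 2 NT libraries of its state, and each grey bar spans these 2 NT libraries. Markers outside a bar lie above or below both NT libraries: for the FUBP1 label 6 (differentiating) and 5 (proliferating) genes lie below and none above, and for the CIC label 2 and 3 genes lie below and 3 and 3 above.

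Differences of a label's effect between the states were tested from group means. For FUBP1, 0 of 10 members were called (0% of rows) and 0 had an unadjusted p under 0.05 (0.827% of rows). For CIC, 0 of 10 were called (0% of rows) and 0 had an unadjusted p under 0.05 (4.28% of rows). The members of smallest p were Fosb (effect larger in the differentiating state by 1.31, SE 0.59) and Egr1 (-1.15, SE 0.52) with the CIC label, both with a limma adjusted p of 0.998. Only the NT libraries give this test its error (2 residual degrees of freedom), and each single library was assumed to vary as they do.

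Likeness was measured as Pearson's r of log2(FPKM + 1) over the 8 libraries, and is a description, since the libraries share their state and the genes were picked from 11968 rows. The kinesin gene Kif13b (r = 0.998) and the kinase Tnik (0.991) were most like Egr2, and the adhesion molecule Vcam1 (0.988) and Nudt18 (0.984) most like Fosl2. For Nr4a1 these were Hspa1l (0.996), a member of the heat shock protein 70 family, and Ero1lb (0.971). Among genes that fell, Rpp25l (0.984) and the chromatin protein gene Dek (0.981) were most like Fosl1, Pip5k1b (0.965) and Mageh1 (0.955) most like Egr1, and Ube2q1 (0.976) and Zfp91 (0.964) most like Ier2. For Jun, Dda1 reached 0.968. Cage1 (0.951) and Use1 (0.947) were most like Fos, and Runx1 (0.971) and Usp21 (0.957) most like Fosb. Junb had the least close matches, the small Maf gene Maff (0.926) and Icam4 (0.918).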

How the data were processed

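The deposited table gives 1 FPKM value per gene and library, computed by the authors. Genome build mm9, Cufflinks 2.1.1, TopHat2 2.0.11, cutadapt and bcl2fastq 2.17 are listed in the submitters' processing notes; their order and settings, the gene annotation and the use of strand are not stated there. The table holds no counts, so depth is unknown. Low values (up to 0.2 FPKM) move in steps, whose most frequent ratio to TRC was 0.951 to 1.05 in the proliferating and 1.21 to 1.34 in the differentiating libraries, so low values are coarser there. FPKM summed to between 426984 and 541608 per library. Start positions count from 0 in the table and were raised by 1.

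The 11968 rows that reached 1 FPKM in 2 or more libraries were tested as log2(FPKM + 1) with limma 3.58.1 (R 4.3.3; moderated with a trend on mean level, two-sided, Benjamini-Hochberg adjustment over all rows, threshold 0.05). State and label effects came from an additive model over the 8 libraries (4 residual degrees of freedom); its residual also holds differences of a label effect between states. Differentiation in NT libraries and differences between states came from 6 group means (2 residual degrees of freedom). The fits were tested on simulated data with independent normal noise and known changes in 66 or 67 genes per size among 11968. The changed genes were drawn from rows of higher mean. In the real state comparison 38.8% of rows were called. The adjustment was less strict there, so the simulated recovery for the state does not carry over directly. A log2 change of 1 was recovered in 20 of 67 genes for the state and 7 of 67 for the FUBP1 label. It was recovered in 13 of 67 for the CIC label and 0 of 67 for the state within NT libraries. A log2 change of 2 was recovered in 51, 43, 43 and 8 of 67, in the same order. A gene that was not called may therefore still have changed by such amounts. Alternatives changed the pseudocount (0.1 or 5), the filter (none, or a mean of at least 5 FPKM), the scaling (quantile, median of ratios), the model, and left out libraries. Named beyond the members are the targeted genes and up to 4 called genes per direction of each of 17 lists (231 symbols). List genes called in another comparison and the 2 genes most like each member are named too. Ccdc85b, Jund, Atf3 and the genes set beside it were named after their values were seen. So were genes given for their maximum or for not being called. The members and lists were chosen with earlier results of these data known. Some genes that this rule names are not reported here.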

Additional observations from a re-analysis of the deposited data

Results flagged for a closer look

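Fosb differed in direction between states with the CIC label. It was at 3.81 FPKM in CIC-D, above both NT libraries of its state (2.57 in 7 and 2.71 in GFP-D), and at 0.441 FPKM in CIC, below both NT libraries of the proliferating state (2.03 in TRC and 1.43 in GFP). The test of the difference between states did not call it (1.31, SE 0.59, limma adjusted p = 0.998). Over all rows CIC-D lay above both NT libraries in 30.8% and CIC below both in 39.9%. The share of rows that did both was not computed. The Fosb value in CIC was below the 1 FPKM of the filter. The group sizes, 1 or 2 libraries, allow no test for single libraries that stand apart.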

How the results depend on the processing

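The signs of all 10 state differences held in every alternative in which the gene was tested (16 or 17 each). Called members numbered 6 with a pseudocount of 5 and 6 with quantile normalization. They numbered 5 without a filter and 5 with a mean of at least 5 FPKM, where only 7 members were tested. The count of 7 called members was 4 from group means and 2 to 7 when 1 library was left out. Over all rows the 4647 calls became 2906 with group means and 2477 to 4857 with 1 library left out. Calls within the NT libraries (175) became 266 with a mean of at least 5 FPKM, 277 with quantile normalization, 0 without a filter, 0 with a pseudocount of 5, and 0 to 442 with 1 library left out (442 without GFP, 0 without TRC, 7 or GFP-D). Calls with the CIC label (13) became 1 with group means, 92 with the GFP-named libraries as a label of their own, 8 with a mean of at least 5 FPKM, 2 without a filter, 35 and 4 with pseudocounts of 0.1 and 5, 3 without both GFP-named libraries (an alternative chosen after seeing the data) and 2 to 18 with 1 library left out. A left-out library leaves fewer samples, and the cause of these changes was not tested. Uncalled label estimates changed sign in leave-one-out fits, which spanned -0.49 to 0.21 (Fosl1), -0.53 to 0.29 (Fosl2), -0.28 to 0.075 (Jun) and -0.081 to 0.64 (Egr2) for FUBP1, and -0.997 to 0.48 (Fosb), -1.33 to 0.018 (Fosl1), -0.98 to 0.0087 (Egr1), -0.26 to 0.78 (Egr2) and -0.17 to 0.67 (Ier2) for CIC. Jun with the CIC label was -0.029 without both GFP-named libraries. Both rescalings moved the median state difference of all rows by -0.09. The labels give no replicate numbers; with the libraries paired across states by name (FUBP1, CIC and GFP, with TRC and 7 as the remaining NT libraries), 7 members and 5119 rows were called between the states and no member with either label.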

Other observations

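Atf3, an AP-1 partner induced by stress, stood apart in a single library. It reached 82.2 FPKM in CIC and 1.30 FPKM in FUBP1, against 0.943 in TRC and 2.01 in GFP, and between 4.39 and 6.33 FPKM in the differentiating libraries. Ier3, an early survival gene, was at 163 FPKM in CIC and 267 FPKM in GFP, against 72.2 in TRC, and Dusp1, which dephosphorylates stress kinases and ERK, at 25.3 and 28.3 FPKM in the same libraries, against 7.45 in TRC. These genes were chosen after their values were seen. Atf3 was not called with the CIC label (2.40, SE 1.09, limma adjusted p = 0.46).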
